A study of Rattus norvegicus with 12 samples.

Results

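The 58 genes described here are those whose difference between athymic nude (AN) and Sprague-Dawley (SD) rats after spinal cord contusion turned over between the acute and the chronic phase. They were selected on the measured values themselves. A gene was a member if its expression was at least 1.4 times higher in one strain in the acute phase and at least 1.4 times higher in the other strain in the chronic phase. All 4 group values had to be at least 2 FPKM (fragments mapped to a gene, scaled to exon length and to the number of mapped fragments). Of 17419 genes listed once in both tables, 9632 met the FPKM minimum with a completed measurement in both phases, and 66 of these passed both thresholds. Of the 66, 8 were left out by name, among them clock-controlled transcription factors and hemoglobin genes. In 42 members the level was higher in SD rats in the acute phase and in AN rats in the chronic phase. In the other 16 the order was the opposite.

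RNA was sequenced from a segment of cord through the injury site of 12 female rats aged 16 to 18 weeks at injury. AN rats (Hsd:RH-rnu/rnu) lack a functional thymus and are short of mature T cells, and SD rats (Hsd:SD) are immunocompetent. Every rat received a contusion of 200 kdyn at the T8/T9 level, and each strain was sampled at 1 week (acute) or at 8 weeks (chronic), with 3 different rats in each of the 4 groups. No uninjured group enters these comparisons. The nude strain is not bred on the SD background, so the missing thymus and the rest of the genetic background cannot be told apart. The tables hold 1 FPKM for each group of 3 rats, so no replicate error or test over rats could be computed from them, and whether a single rat carried a value was not tested. The tables give no fragment counts, so the counting error of a single value was not computed.

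A contused cord passes from an acute phase of cell death, bleeding, phagocyte entry and matrix deposition into a chronic phase with a settled scar. During this time Schwann cells from the nerve roots can enter the lesion and wrap axons with peripheral myelin, and fibroblasts from the meninges and vessels lay down a fibrotic core. T cells are among the immune cells that enter the injured cord. Because bulk tissue was sequenced, fewer cells of a type and less RNA per cell cannot be told apart.

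Reversal at this threshold was uncommon among all genes. In the acute phase 14.5% of the 9632 eligible genes were at least 1.4 times higher in SD rats and 8.94% were at least 1.4 times higher in AN rats. In the chronic phase 7.17% were at least 1.4 times higher in AN rats and 6.44% in SD rats. The pattern SD then AN was met by 49 genes (0.509%) and AN then SD by 17 (0.176%), counted before the named exceptions. Put differently, of the 1393 genes that were higher in SD rats in the acute phase, 3.52% were past the threshold in the opposite direction in the chronic phase. The corresponding share of the 861 genes higher in AN rats in the acute phase was 1.97%. These shares describe the selection, and nothing is read from them.

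**Figure D1:**
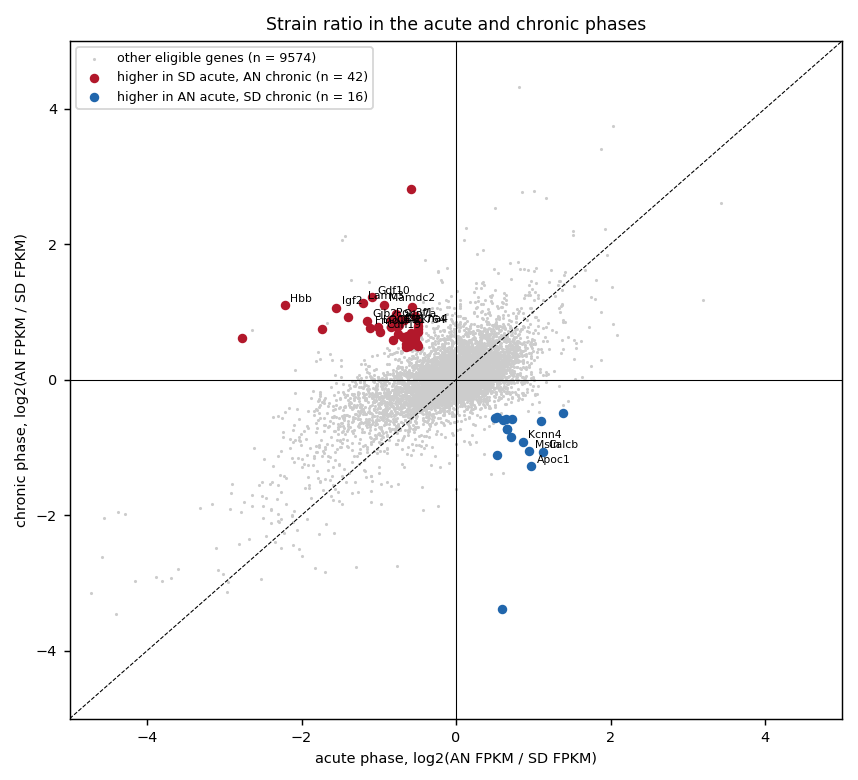
Log2 of the AN to SD FPKM ratio in the acute phase (x axis) against the chronic phase (y axis), with 1 point per eligible gene. Grey points are the 9574 other genes, red points the 42 members higher in SD and then AN rats, and blue points the 16 members higher in AN and then SD rats; they occupy opposite corners because the selection placed them there, and the dashed line marks equal ratios.

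Gene symbols were available for 30 of the 58 members (20 of the SD then AN genes and 10 of the AN then SD genes). The other 28 are known here by Rat Genome Database (RGD) identifier only. The symbols do not sample the genes evenly. Of the 1009 eligible genes whose symbol came from the study's supplementary gene table, 100% passed 1.4-fold at 1 week and 47.3% did at 8 weeks. The shares were 19.0% and 9.84% for the 2022 genes named through RefSeq, and 13.04% and 9.62% for the 6601 genes with no symbol. Because 27 of the 30 named members took their symbol from the supplementary table, that a named gene passes 1.4-fold in the acute phase is fixed in part by the naming, though not which strain is the higher. Among all genes with a symbol, 37 of 3031 (1.22%) reversed in either direction, counted before the named exceptions.

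Secreted growth factors were among the members with the widest turnover. Igf2 encodes insulin-like growth factor 2, a mitogen that signals through the IGF1 receptor. It measured 119 FPKM in SD and 40.6 in AN rats at 1 week, and 409 in SD and 852 in AN rats at 8 weeks. It was thus 2.93-fold higher in SD rats in the acute phase and 2.08-fold higher in AN rats later. Both strains had more Igf2 in the chronic than in the acute phase, by 3.44-fold in SD and 21.0-fold in AN rats. Levels in the 2 phases come from tables that were normalized separately, so such ratios across time are descriptive only. Gdf10, a member of the transforming growth factor beta superfamily, had 7.22 and 3.40 FPKM in acute SD and AN rats, and 9.16 and 21.3 FPKM in chronic SD and AN rats. Its chronic to acute ratio was 1.27 in SD rats and 6.27 in AN rats. These are the 2 reversing genes among 10 eligible genes of a growth factor list, which has 13 of its 59 genes named. In the acute phase 6 of the 10 were at least 1.4-fold higher in SD rats and 4 in AN rats. Of the 937 genes with a symbol past that fold in SD rats, 2.88% reversed, and 1.22% of all genes with a symbol did. With an FPKM of at least 5 the list's count was 1. The other 8 kept one sign. Igfbp4, which binds IGFs, was higher in AN rats in both phases (log2 ratios of AN to SD of 1.03 and 1.64), and Cntf, a neurotrophic factor of astrocytes and Schwann cells, was higher in SD rats in both (-1.39 and -0.99).

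Lamc3, Gjb2 and Mamdc2 had the same order of strains as Igf2. Lamc3, a laminin gamma chain of basement membranes, had 23.7 FPKM in SD and 10.3 in AN rats at 1 week, and 14.0 in SD and 30.6 in AN rats at 8 weeks. SD rats thus had less Lamc3 in the chronic phase than in the acute phase, and AN rats had more. Gjb2 encodes connexin 26, a gap junction protein found in the leptomeninges. Its values were 59.5 and 26.9 FPKM in acute SD and AN rats, then 81.2 and 148 FPKM in chronic SD and AN rats. The acute AN group was the lowest and the chronic AN group the highest for Gjb2. For Mamdc2, which encodes a secreted proteoglycan, the 4 values were 5.24 FPKM in SD and 2.74 in AN rats at 1 week, and 5.45 in SD and 11.7 in AN rats at 8 weeks. The SD groups were nearly level and the AN groups lay on either side of them.

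**Figure D2:**
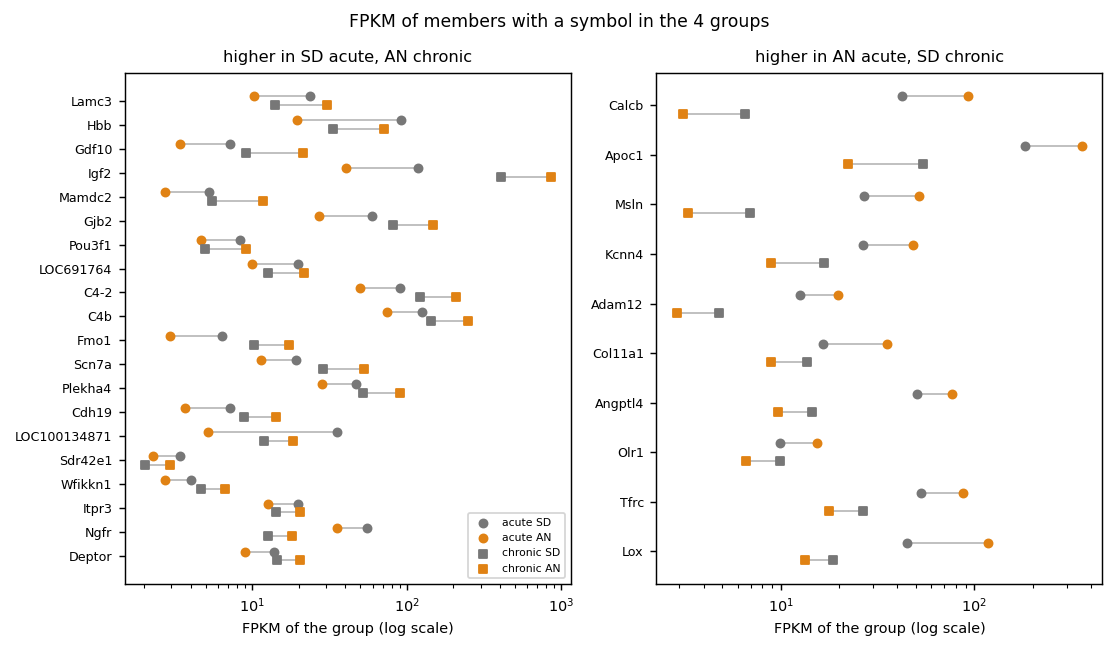
FPKM of each group on a log axis for the 30 members with a symbol, with acute groups as circles, chronic groups as squares, SD in grey and AN in orange; a line joins the strains within a phase. In the left panel the orange circle lies left of the grey circle and the orange square right of the grey square, and in the right panel this order is the other way round; Igf2 spans the widest range on the left, from 40.6 to 852 FPKM.

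Of the gene lists examined, that of Schwann cells held the most members. The list of peripheral myelin and Schwann cell genes held 14 eligible genes with a symbol, and 5 of them reversed, all from SD to AN. Of all 937 genes with a symbol that were at least 1.4-fold higher in SD rats in the acute phase, 2.88% reversed. The list's count was 8 with a fold of 1.2, 0 with a fold of 2 and 3 with an FPKM of at least 5. Pou3f1, a transcription factor of Schwann cells on the way to myelination, had 8.32, 4.64, 4.95 and 9.10 FPKM in acute SD, acute AN, chronic SD and chronic AN rats. Scn7a, a sodium-sensing channel of glia and Schwann cells, had 19.2, 11.4, 28.7 and 52.7 FPKM in the same order. Cdh19, a cadherin of the Schwann cell lineage, had 7.18, 3.64, 8.78 and 14.3 FPKM. In all of these the acute AN value was the lowest and the chronic AN value the highest of the 4. Plekha4, a pleckstrin homology domain protein, showed the same order with 47.2, 28.4, 52.1 and 90.8 FPKM.

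Ngfr differed from the other Schwann list members in its course over time. It encodes the p75 neurotrophin receptor, which Schwann cells carry when they are not myelinating. The acute values were 54.9 FPKM in SD and 35.3 in AN rats, and the chronic values were 12.6 and 18.0 FPKM. Of the 42 members higher in SD and then in AN rats, Ngfr was the only one lower in chronic than in acute AN rats (log2 change of -0.97). It had a still larger decrease in SD rats (-2.12), so the strain order reversed while both strains had less. With a pseudocount of 1 FPKM its chronic log2 ratio was 0.48, just under the limit.

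The other 9 genes of the Schwann list were also lower in AN rats in the acute phase, but none was 1.4-fold higher in AN rats in the chronic phase. Prx, a scaffold of mature myelinating Schwann cells, had 60.1 and 19.7 FPKM in acute SD and AN rats, and 63.1 and 77.0 FPKM in chronic SD and AN rats. Its chronic log2 ratio was 0.29, and that of Cldn19, a tight junction protein of peripheral myelin, was 0.38. Pmp2, Fxyd3 and Sox2 stayed lower in AN rats in the chronic phase (-0.53, -0.23 and -0.76). So did Mal and S100b, which central glia also express (-0.38 and -0.50). Among the 9, 3 were at least 1.4-fold higher in SD rats in the chronic phase. Of these 9 genes, 4 (44.4%) had a chronic AN value above the chronic SD value, and their median chronic log2 ratio was -0.23. Among the 1393 genes at least 1.4-fold higher in SD rats in the acute phase, reversing genes included, the share was 18.2% and the median -0.32. The 5 reversing genes are left out of the count for the list because the selection required a higher chronic AN value of them. That the list genes passed 1.4-fold in the acute phase follows for 13 of the 14 from the naming, since their symbols came from the supplementary table; which strain was the higher does not. With 66.7% of the list named, these counts do not stand for the whole list.

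**Figure D3:**
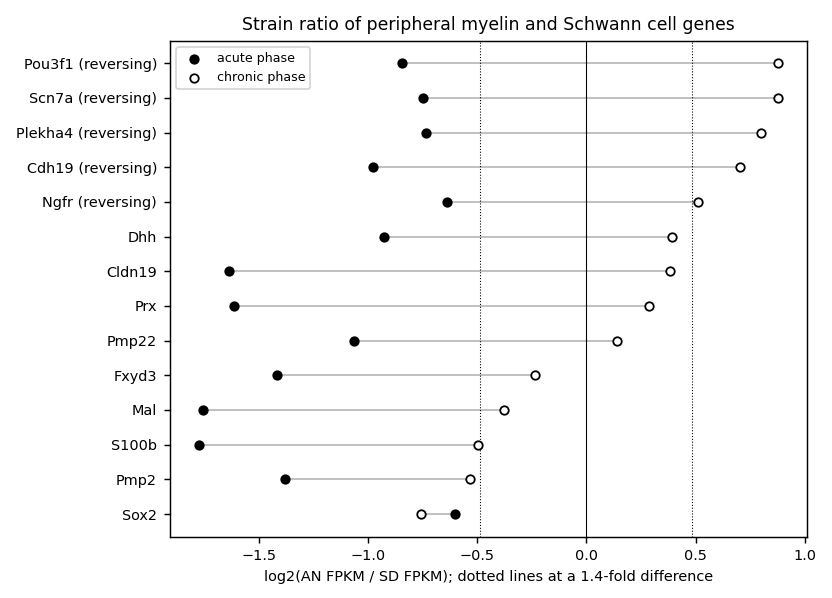
Log2 of the AN to SD FPKM ratio of the 14 eligible genes of the peripheral myelin and Schwann cell list, in the acute phase (filled) and the chronic phase (open). All filled points are left of 0; the 5 reversing genes, selected for it, have open points beyond the right dotted line at 1.4-fold, and 4 of the 9 others have an open point right of 0.

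Complement C4, the thioester protein shared by the classical and lectin pathways, was represented by a pair of gene copies. C4b had 126 FPKM in SD and 73.9 in AN rats at 1 week, and 144 in SD and 247 in AN rats at 8 weeks. C4-2 had 89.7, 49.8, 121 and 207 FPKM in the same order. Both copies were 1.71-fold higher in AN rats in the chronic phase. The copies are near-identical, so fragments may have been split between them and each single value is uncertain. C4b was the only reversing gene among 5 eligible genes of a complement list of which 17.9% is named, and C4-2 is not on that list. In the acute phase 3 of the 5 were at least 1.4-fold higher in SD rats. Of the 937 genes with a symbol past that fold in SD rats, 2.88% reversed.

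The C4 copies lie in a stretch of chromosome 20 that holds 5 members, all higher in SD and then in AN rats. On the RN4 build C4b is at chr20:4106123-4145904, C4-2 at chr20:4300687-4315882 and Itpr3 at chr20:5292430-5357502. Itpr3 encodes an inositol trisphosphate receptor that releases calcium from the endoplasmic reticulum. It had 19.9 and 12.7 FPKM in acute SD and AN rats, and 14.2 and 20.4 FPKM in chronic SD and AN rats. RefSeq promoters (250 bases before to 50 after the start of the gene, GRCr8 build) could be matched by symbol to 19 of the 58 members (32.8%), too few for a statement on the members as a set. C4b and Itpr3 were the 2 of these 19 whose promoter held the E-box CACGTG, which reads the same on both strands. They are shown because both lie in this stretch. CLOCK and BMAL1 bind this motif, and whether they act on either gene was not tested. The capitals mark the motif, which starts 95 bases before the gene start in C4b (chr20:4201729-4202028, plus strand) and 237 bases before it in Itpr3 (chr20:5138562-5138861, plus strand).
C4b: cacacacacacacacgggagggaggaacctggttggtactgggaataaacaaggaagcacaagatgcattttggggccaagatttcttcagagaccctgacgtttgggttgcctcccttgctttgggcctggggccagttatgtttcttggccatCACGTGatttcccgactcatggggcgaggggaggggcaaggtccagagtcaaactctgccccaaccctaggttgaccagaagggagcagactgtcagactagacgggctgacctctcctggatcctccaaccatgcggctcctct
Itpr3: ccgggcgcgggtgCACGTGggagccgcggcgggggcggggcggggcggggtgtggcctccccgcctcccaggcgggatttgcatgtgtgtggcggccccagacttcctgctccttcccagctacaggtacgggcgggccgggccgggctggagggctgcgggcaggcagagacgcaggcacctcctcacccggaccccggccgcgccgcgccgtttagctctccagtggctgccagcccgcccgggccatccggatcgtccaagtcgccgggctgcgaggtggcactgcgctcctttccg
The same 6 letters occurred in 2148 of 33469 rat promoters in the table (6.42%). A match of letters does not show binding.

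Genes at the beta-globin locus formed a second cluster. Hbb (RGD:2290038), a beta-globin chain of hemoglobin, had 91.2 FPKM in SD and 19.6 in AN rats at 1 week, and 33.2 in SD and 71.0 in AN rats at 8 weeks. Its neighbour LOC100134871 had 35.2, 5.14, 12.0 and 18.4 FPKM, and its acute difference of 6.84-fold was the widest of all members. RGD:2783, in the same stretch, had 274, 182, 93.4 and 654 FPKM, a chronic difference of 7.01-fold. These 3 loci fall within chr1:161578126-161620193 on RN4, and closely similar globin genes can share fragments, so the value of any single copy is uncertain. SD rats had less of all 3 in the chronic phase than in the acute phase, whereas AN rats had more. The red cell membrane gene Slc4a1 was below 1 FPKM in every group (0.913, 0.0891, 0.381 and 0.425). The rats were perfused with buffer before the cord was taken, and the part of residual blood in the globin values was not tested.

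Other genes higher in SD and then in AN rats had diverse roles. Wfikkn1, a secreted protein with protease inhibitor domains that binds growth and differentiation factors, had 4.00 and 2.73 FPKM in acute SD and AN rats, and 4.64 and 6.69 in chronic SD and AN rats. LOC691764 had 19.9, 9.89, 12.6 and 21.7 FPKM in acute SD, acute AN, chronic SD and chronic AN rats. The level was lower in the chronic than in the acute phase in SD rats, and higher in AN rats. A pair of further genes, chosen after their values were seen, were Fmo1, a flavin-containing monooxygenase, with 6.36, 2.94, 10.2 and 17.3 FPKM, and Deptor, an inhibitor of the mTOR kinase, with 13.8, 9.02, 14.5 and 20.3 FPKM.

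Of the 22 members of this direction without a symbol, RGD:628827 had the largest difference in the phase where it differed less. Its values were 27.3 and 10.4 FPKM in acute SD and AN rats, and 25.4 and 48.2 FPKM in chronic SD and AN rats. Over these 22, acute log2 ratios ran from -1.74 to -0.49 and chronic log2 ratios from 0.49 to 2.81, the last being RGD:2783.

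The 16 members higher in AN rats in the acute phase and in SD rats in the chronic phase were led by a neuropeptide gene. Calcb encodes the beta form of calcitonin gene-related peptide, which is made by motor and sensory neurons. It had 42.4 FPKM in SD and 92.6 in AN rats at 1 week, and 6.57 in SD and 3.15 in AN rats at 8 weeks. AN rats therefore went from the highest to the lowest of the 4 values, and their chronic level was 0.0340 times the acute one, against 0.155 times in SD rats. General neuronal markers did not share this order. Snap25, a synaptic fusion protein, had 179 and 6.79 FPKM in acute SD and AN rats, and 213 and 24.1 FPKM in chronic SD and AN rats, and was therefore higher in SD rats in both phases.

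Apoc1, Angptl4 and Olr1, which act in lipid handling, were members of this direction. Apoc1, an apolipoprotein made by lipid-laden macrophages among other cells, had 183 FPKM in SD and 359 in AN rats at 1 week, and 54.2 in SD and 22.4 in AN rats at 8 weeks. Angptl4, an inhibitor of lipoprotein lipase, had 50.8, 77.0, 14.5 and 9.66 FPKM. Olr1, a scavenger receptor for oxidised low-density lipoprotein, had 9.87 and 15.4 FPKM in acute SD and AN rats, and 9.96 and 6.63 in chronic SD and AN rats. The SD level of Olr1 was thus almost the same in both phases, and the AN level moved from above to below it. Apoc1 and Angptl4 were 2 of 11 eligible genes of a cholesterol and lipid list, of which 21.6% is named, beside the 1.22% of all named genes. In the acute phase 6 of the 11 were at least 1.4-fold higher in SD rats and 5 in AN rats. Of all 861 eligible genes past that fold in AN rats, 1.97% reversed. The list's count was 0 with a fold of 2. Of the 9 others, 4 were higher in SD rats in both phases. Fdft1 and Cyp51, enzymes of sterol synthesis, changed sign the opposite way, from SD to AN, without reaching 1.4-fold in the chronic phase (log2 ratios of -0.60 and 0.26 for Fdft1, -0.63 and 0.06 for Cyp51). The other 3, Lpl and Fabp4 among them, were higher in AN rats in both phases, with log2 ratios of 1.06 and 0.79 for Lpl and of 1.22 and 1.62 for Fabp4.

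Matrix genes of the lesion were split. Lox, the enzyme that cross-links collagen and elastin, had 45.1 and 117 FPKM in acute SD and AN rats, and 18.7 and 13.4 FPKM in chronic SD and AN rats. Col11a1, a fibrillar collagen chain, had 16.5, 35.3, 13.7 and 8.94 FPKM in acute SD, acute AN, chronic SD and chronic AN rats. Adam12, a membrane metalloprotease of remodelling tissue, had 12.6, 19.9, 4.83 and 2.91 FPKM. All of these were highest in acute AN and lowest in chronic AN rats. Lox and Col11a1 were 2 of 11 eligible genes of a fibroblast and matrix list, which has 11 of its 55 genes named, again beside 1.22% of all named genes. In the acute phase 9 of the 11 were at least 1.4-fold higher in AN rats and 2 in SD rats. Of all 861 eligible genes past that fold in AN rats, 1.97% reversed. The list's count was 1 with a pseudocount of 1 FPKM and 0 with a fold of 2. Of the 9 others, 6 were higher in AN rats in both phases, among them Postn, a matricellular protein of fibroblasts (log2 ratios of 1.80 and 1.19), and Mgp, an inhibitor of calcification (1.03 and 0.92). Fmod and Bcan, which encode matrix proteoglycans, were higher in SD rats in both phases (-0.99 and -0.27 for Fmod, -0.91 and -0.41 for Bcan). Col8a1, a short-chain collagen, changed sign without reaching 1.4-fold in the chronic phase (1.02 and -0.22).

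The remaining named genes of this direction belong to different classes. Msln, the cell-surface protein mesothelin, had 26.9 FPKM in SD and 51.9 in AN rats at 1 week, and 6.94 in SD and 3.34 in AN rats at 8 weeks. Kcnn4, a calcium-activated potassium channel of immune and other cells, had 26.5, 48.1, 16.8 and 8.88 FPKM. Tfrc, the transferrin receptor through which cells take up iron, had 53.2, 87.7, 26.5 and 17.8 FPKM. For each of them both strains had less in the chronic than in the acute phase, and the difference was wider in AN rats.

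The 6 members of this direction without a symbol included the most extreme chronic ratio. RGD:2323085, a locus of 0.291 kb, had 3.19 FPKM in SD and 4.80 in AN rats at 1 week, and 31.1 in SD and 3.00 in AN rats at 8 weeks. The chronic SD value stood apart from the other 3, and this was the only member of its direction whose highest group was not acute AN. Across the 6, acute log2 ratios were between 0.50 and 0.71 and chronic log2 ratios between -3.38 and -0.56.

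The AN rats covered the wider range over time in most members. The change between phases was larger in AN than in SD rats in 53 of 58 members (38 of 42 and 15 of 16), and this was so for 72.9% of all eligible genes. The strains moved in opposite directions in 18 of 58 members, against 20.5% of all eligible genes. These measures use the same 4 values as the selection, so nothing is read from the contrast with all genes. Among the 42 members higher in SD and then in AN rats, the median log2 of chronic over acute FPKM was 1.71 in AN and 0.16 in SD rats. For the other 16 it was -2.16 in AN and -0.62 in SD rats. Over all eligible genes both medians were near 0 (0.00 in AN and -0.01 in SD rats). The selection also limits which groups can be lowest or highest. For the 42 the lowest group could only be acute AN or chronic SD, and it was acute AN in 37, while the highest was chronic AN in 36. For the 16, chronic AN was the lowest in every gene and acute AN the highest in 15. Over all 9632 eligible genes, acute AN was the lowest in 3503 and the highest in 3805, and chronic AN the lowest in 1770 and the highest in 2220.

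**Figure D4:**
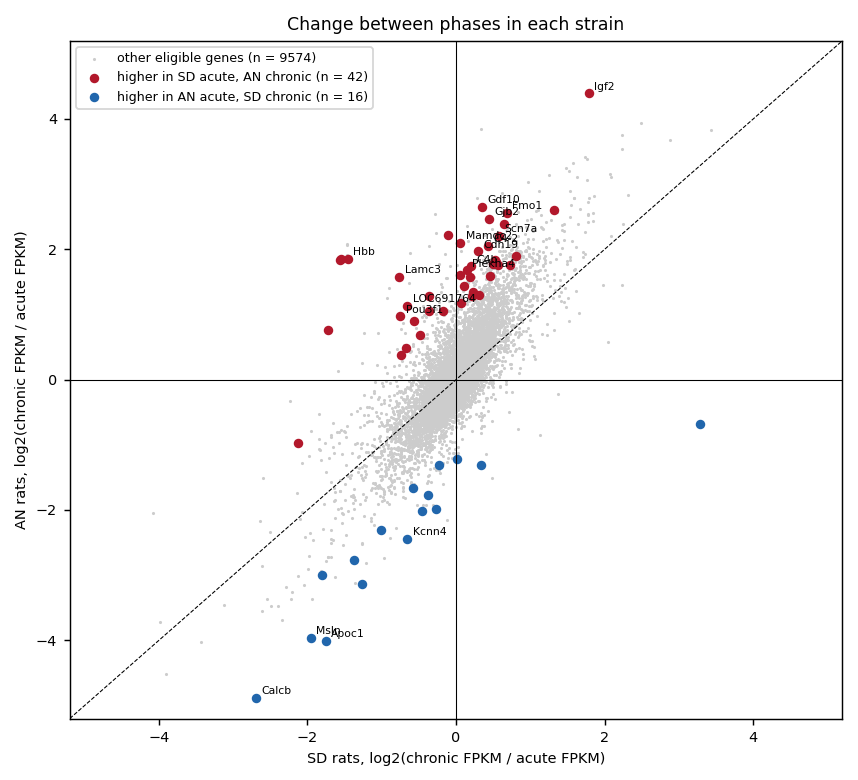
Log2 of chronic over acute FPKM in SD rats (x axis) against AN rats (y axis), with grey points for the 9574 other eligible genes, red for the 42 members higher in SD and then AN rats and blue for the 16 in the opposite order. The dashed line marks equal change; red points lie above it and blue points below it, with Igf2 at the upper end (1.78 and 4.39) and Calcb at the lower end (-2.69 and -4.88).

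Members lay near one another more often than eligible genes lay near members. Within 1 Mb of another member were 21 of the 58 (36.2%), while 830 of 9632 eligible genes (8.62%) had a member within that distance. The 21 formed 8 groups, of which 6 held members of 1 direction only. Besides the chromosome 20 and beta-globin groups, Apoc1 and Kcnn4 lay on chromosome 1, in a stretch of 0.632 Mb. Lamc3 had a neighbouring member on chromosome 3 and Ngfr had one on chromosome 10, both without a symbol. Msln and Wfikkn1 were neighbours on chromosome 10 and went in opposite directions. Gene copies that share fragments, in the globin and C4 groups, count in these numbers.

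Of 35 gene lists, 8 held at least 1 member and 27 held none. Tfrc was the only member on the red cell and heme list. A gene of that list left out by name reversed from SD to AN, with a chronic log2 ratio of 2.12. Adam12 was the member on the proteases list, and Angptl4 was also that of the glucocorticoid-responsive list. The clock list shows none because its reversing genes with a symbol were among those left out. Only 28.6% of that list is named, so members without a symbol may belong to it. Of the 30 named members, 16 were in no list. The lists name only part of their genes, from 2.78% to 80.0% by list, so a list without a member is no statement about its pathway.

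The tissue itself differed between the strains in its neuronal and glial markers. Nefl and Nefm, neurofilament chains of axons, had log2 ratios of -4.56 and -4.37 at 1 week and of -2.04 and -1.95 at 8 weeks. The oligodendrocyte genes Mog and Mobp were lower in AN rats by less, at -1.44 and -1.91 in the acute and -0.39 and -0.46 in the chronic phase. Acta1, a skeletal muscle actin, was at 9.76 FPKM in acute SD rats and between 0.847 and 4.64 in the other groups. Only 9 of 28 markers sought carried a symbol, and those of astrocytes, macrophages, fibroblasts and endothelium were not among them. The gene lists give other genes of these cells. Of 13 eligible macrophage and microglia genes, 10 were at least 1.4-fold higher in AN rats in the acute phase (8.94% of all eligible genes were), and the list's median log2 ratio was 0.95 at 1 week and 0.41 at 8 weeks. All 3 eligible astrocyte genes were lower in AN rats in both phases (medians of -1.69 and -0.50). Only 19.2% of that list is named, and S100b, also on the Schwann list, is among the 3. Gfap, the paper's astrocyte marker, carried no symbol here, and the paper reports no significant strain difference for it. Of 5 eligible endothelium and pericyte genes, 4 were at least 1.4-fold higher in SD rats in the acute phase, against 14.5% of all eligible genes (medians of -0.82 and -0.04). Over all eligible genes these medians were 0.03 and 0.02. Since symbols were given mostly to genes already past 1.4-fold in the acute phase, the size of the acute ratios in these lists is set in part by the naming, and the contrast with all genes is overstated. The part of tissue makeup in the reversals was not tested.

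Several members lay close to the limits of the selection. Lox was the member nearest to the fold limit, with a chronic log2 ratio of -0.488 where 0.485 was required in size. The nearest gene outside, without a symbol, had a smaller ratio of 0.485 in size, just under the limit. Sdr42e1, a short-chain dehydrogenase family member, was the member nearest to the FPKM limit, with 3.39, 2.26, 2.03 and 2.94 FPKM in acute SD, acute AN, chronic SD and chronic AN rats. Ccdc69, a coiled-coil protein, fell just outside with 3.83, 5.62, 3.10 and 1.92 FPKM.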

How the data were processed

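PolyA RNA of 12 rats was sequenced as paired 51-base reads. The authors removed adapters with CutAdapt, aligned reads to rat genome build RN4 using TopHat 1.5.0, assembled transcripts with Cufflinks 0.0.6 (versions per the submitters' processing notes) with quartile normalization, merged them for each time point and compared strains with CuffDiff. They deposited 1 table per phase, each normalized on its own, with 17423 rows and 1 FPKM per gene and group of 3 rats. The tables' columns of fold changes, test statistics, p-values and significance hold the authors' own comparison and were not used, except that the status column served the selection. Genes listed on more than 1 row (4 rows) were left out.

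From the FPKM, log2 ratios of AN to SD within a phase, and of chronic to acute within a strain, were computed without a pseudocount (Python 3.11.15, pandas 2.3.3, numpy 2.4.6). The selection was tested on simulated data. Symbols came only from direct identifier matches, to RefSeq synonyms (3066 genes) or to the symbols of the study's supplementary gene table (1609 genes), which together name 31.5% of the eligible genes. The genes named are, among members with a symbol, the 10 per direction with the largest smaller ratio of both phases, those in a gene list, those within 1 Mb of another member and those nearest to the limits. For lists with at least 2 members, up to 5 other genes are named, those with the largest ratios. Exceptions are stated, and Fmod, Bcan, Col8a1, Fdft1, Cyp51, Pmp2 and Sox2 were added after their values were seen. A gene is not reported here and was taken out of the Schwann cell list and the marker set, so it enters none of their counts or medians. Members and lists were chosen with earlier results of these data known. Alternatives varied the fold and FPKM limits, the pseudocount, the scaling and the status filter.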

Additional observations from a re-analysis of the deposited data

How the results depend on the processing

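The number of members follows from the limits set. With a fold of 1.2 in place of 1.4 there were 240 genes (166 higher in SD then AN, 74 in AN then SD), and with a fold of 2 there were 5 (4 and 1): Lamc3, Hbb, Gdf10, Igf2 and Calcb. An FPKM of at least 5 gave 35 genes (26 and 9), and any FPKM above 0 gave 125 (88 and 37). Counts stayed within 1.5 times with an FPKM of at least 1 (82), a pseudocount of 1 FPKM (40), and without the status filter (58). Centring the ratios on their median, or a common upper quartile, gave 57 genes each, 53 of them among the 58. The Schwann cell list held 8 reversing genes with a fold of 1.2, 0 with a fold of 2 and 3 with an FPKM of at least 5, against 5. With a fold of 2 the fibroblast and lipid lists held 0 and the growth factor list 2. The growth factor list held 1 with an FPKM of at least 5, and the fibroblast list 1 with the pseudocount, against 2 each. Of 180 recomputed ratios of named members, 0 changed sign and 14 moved by at least 0.1 on the log2 scale. Of the 30 named members, 5 no longer passed with the pseudocount (Deptor, Lox, Ngfr, Sdr42e1 and Wfikkn1), and Deptor did not pass under either scaling. No paired analysis was possible because the tables hold 1 value per group, which also prevents leaving out single rats. Error between rats therefore limits every statement here.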
